A study of Mus musculus with 8 samples.

Results

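The vascular endothelial growth factor (VEGF) and angiopoietin axis was followed through 10 genes, the ligands Vegfa, Vegfb and Vegfc, the VEGF receptors Flt1, Kdr and Flt4, the angiopoietins Angpt1 and Angpt2, and the receptors Tek and Tie1. They were taken by name and make up 10 of the 31053 genes counted. RNA had been measured in single cells dissociated from the dentate gyri of Nestin-GFP mice with a labelled age of 8 weeks. Control mice had a sham craniotomy and TBI mice a controlled cortical impact on 1 side of the brain, and tissue was taken 15 days after surgery. Mice of both conditions carried the same transgene, in which regulatory elements of nestin, a filament protein of neural stem cells that vessel cells can also make, drive GFP. Only cells sorted for GFP entered the libraries, so vessel cells without GFP are not represented. Animals were pooled within a condition, so that each condition is 1 library, no replicate error exists, and no difference between the conditions was tested. The labels name 4 sham and 4 TBI animals, which differs from the numbers in the study's text, so how many animals entered each library is not known. Intervals given below are 95% intervals that cover counting error only.

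VEGF ligands are secreted proteins that bind receptor tyrosine kinases on endothelial cells, the inner lining of vessels. Kdr is the main signalling receptor for Vegfa, Flt1 binds Vegfa and Vegfb tightly and also exists as a soluble decoy, and Flt4 is the receptor of Vegfc, best known from lymphatic vessels. Angpt1 activates Tek, which stabilizes vessels, Angpt2 acts on the same receptor and often opposes Angpt1, and Tie1 is a related receptor that modulates Tek. In the brain, astrocytes are a known source of Vegfa, and mural cells (pericytes and smooth muscle cells around the endothelium) are a known source of Angpt1.

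The sequences upstream of 3 endothelial receptors and of Vegfa are shown because the results on levels in endothelial and astrocyte-like cells turn on these genes. Each is the 250 bases before a RefSeq transcript start (assembly GRCm38.p6), written 5′ to 3′ on the strand of the gene, and capitals mark GGAA or its reverse complement TTCC, the core letters that ETS factors, a family active in endothelial cells, recognize. Flt1 lies at chr5:147726012-147726261 (minus strand), Kdr at chr5:75978456-75978705 (minus strand), Tek at chr4:94739039-94739288 (plus strand) and Vegfa at chr17:46032378-46032627 (minus strand).
Flt1: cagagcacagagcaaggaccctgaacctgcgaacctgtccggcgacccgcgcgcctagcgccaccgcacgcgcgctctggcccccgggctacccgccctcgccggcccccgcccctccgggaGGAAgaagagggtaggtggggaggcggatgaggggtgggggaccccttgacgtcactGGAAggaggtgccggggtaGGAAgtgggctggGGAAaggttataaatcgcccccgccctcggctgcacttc
Kdr: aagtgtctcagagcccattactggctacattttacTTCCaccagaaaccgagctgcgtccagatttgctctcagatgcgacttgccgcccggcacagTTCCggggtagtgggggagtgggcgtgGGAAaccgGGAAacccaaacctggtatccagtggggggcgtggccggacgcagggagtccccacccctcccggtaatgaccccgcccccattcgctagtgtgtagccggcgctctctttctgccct
Tek: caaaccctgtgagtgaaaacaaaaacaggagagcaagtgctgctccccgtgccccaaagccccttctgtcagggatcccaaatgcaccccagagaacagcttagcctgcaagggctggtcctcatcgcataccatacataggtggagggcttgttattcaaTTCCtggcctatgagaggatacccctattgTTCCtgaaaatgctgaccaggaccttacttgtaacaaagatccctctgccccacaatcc
Vegfa: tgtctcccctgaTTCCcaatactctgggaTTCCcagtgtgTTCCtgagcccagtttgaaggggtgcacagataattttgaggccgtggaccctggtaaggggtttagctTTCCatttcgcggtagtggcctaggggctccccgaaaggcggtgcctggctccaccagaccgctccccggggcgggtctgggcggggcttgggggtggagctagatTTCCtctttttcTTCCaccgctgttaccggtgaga
The core was found 4 times in the Flt1 window, 4 times in the Kdr window, 2 times in the Tek window and 6 times in the Vegfa window. Of 32851 RefSeq windows of the same length, 93.4% held it, with a median of 3, so its presence does not set these genes apart, and the letters describe no binding. RefSeq windows were matched for 8 of the 10 genes, not for Angpt1 and Angpt2.

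Cells were clustered without the 10 genes and named from markers that hold none of them. "Like" names are shortened below for endothelial, pericyte, smooth muscle, fibroblast, oligodendrocyte, OPC (oligodendrocyte precursor) and microglia clusters, and NSC/RG-like stands for neural stem and radial glia-like cells as 1 type. The libraries held 3049 Control cells with a median of 6928 unique molecular identifiers (UMIs, 1 per captured RNA molecule) and 5036 TBI cells with a median of 5663, and 687 cells stayed unnamed. The libraries shared 3 cell barcodes. Endothelial cells numbered 263 in the Control and 564 in the TBI library, pericytes 204 and 623, smooth muscle cells 51 and 41, astrocyte-like cells 739 and 702, and neuron-like cells 577 and 1011. A level is the summed UMIs of a gene in counts-per-million (CPM) within the cell type, which is not scaled for gene length, so levels are compared between cell types and libraries and not between genes. Where a comparison with the background is made, it is the percent of all genes with at least 50 UMIs in that cell type whose levels differed by 1.5-fold or more between the libraries.

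The receptors were held mainly by endothelial cells, while most UMIs of Vegfa, Vegfb and both angiopoietins lay in other cell types. Endothelial cells held 91.9% of all Flt1 UMIs, 85.7% of Kdr, 94.0% of Flt4, 93.0% of Tek and 90.9% of Tie1. Astrocyte-like cells held 68.1% of Vegfa and neuron-like cells 50.9% of Angpt1. Vegfb had no such main holder. Oligodendrocytes held 28.3%, NSC/RG-like cells 23.4%, astrocyte-like cells 18.6% and neuron-like cells 16.7%, and the order of the first 2 turned by library, with 23.7% and 27.0% in Control and 32.1% and 20.5% in TBI. Angpt2 was also divided. Pericytes, smooth muscle and endothelial cells held 36.7%, 17.2% and 11.7% in Control, and 23.7%, 9.16% and 26.0% in TBI. The pericyte shares came from 47 and 31 UMIs, against 6 and 16 in pericyte subclusters named from markers. Many of the others lay in an unnamed mural subcluster, as given below. All shares are of the sorted cells, not of the tissue.

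**Figure D1:**
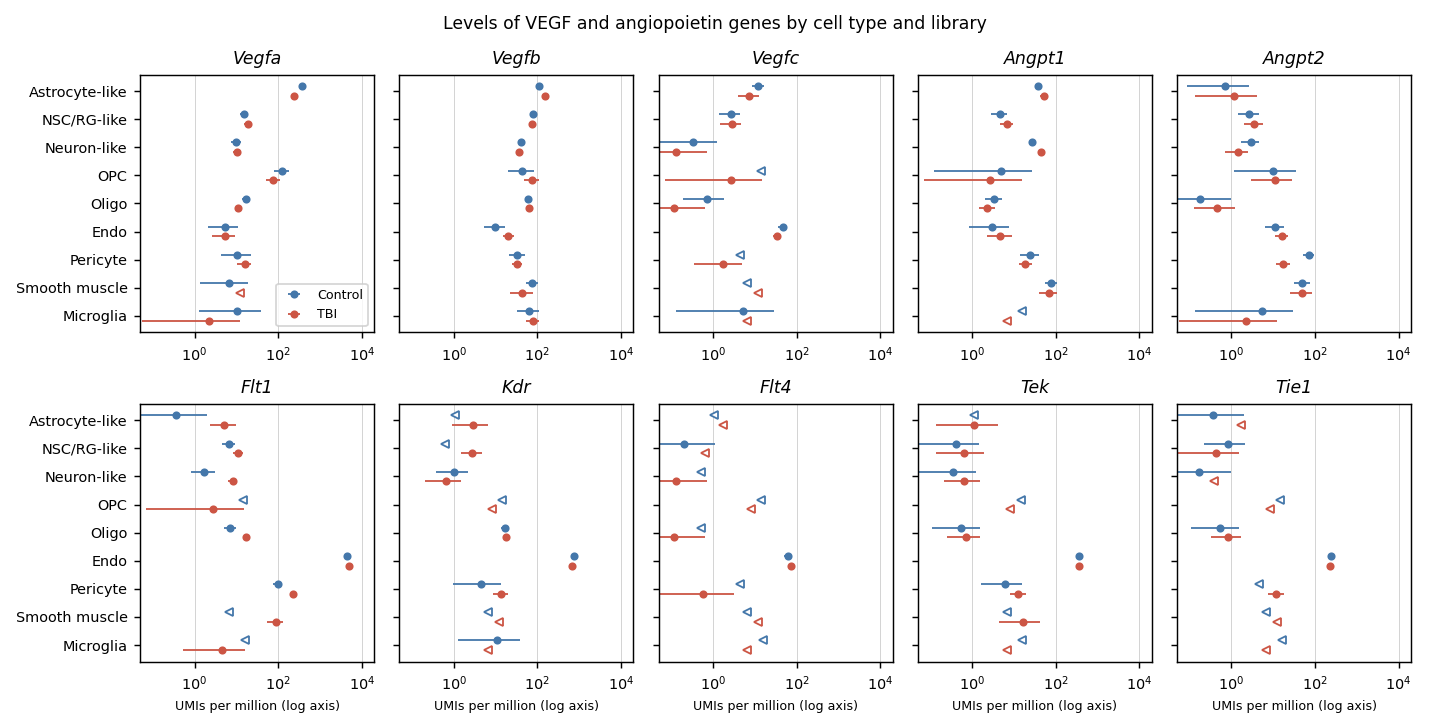
CPM (horizontal log axis) of each gene in 9 cell types of the Control (blue) and TBI (red) libraries, with 95% intervals of counting error, and open triangles at the limit of 3 counts where no UMI was seen. The 5 receptor genes peak in endothelial cells (Endo), Vegfa in astrocyte-like cells, and Vegfb is spread over all types.

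Among the 27 pairs of a gene and a cell type with at least 50 UMIs, 9 differed by 1.5-fold or more between the libraries, 6 being higher and 3 lower in TBI. For the gene's own leading cell type this held for 1 of 9 pairs, Vegfa in astrocyte-like cells. The background percent was 4.91 in astrocyte-like, 4.18 in neuron-like, 4.96 in NSC/RG-like, 3.93 in oligodendrocyte, 28.4 in OPC, 5.5 in endothelial, 9.1 in pericyte and 17.2 in smooth muscle cells. Thus a fold of this size was common in OPC and smooth muscle cells, where counts are low, and uncommon elsewhere. For 8 of the 9 pairs the interval left out equal levels, the other being Vegfa in OPC. Of all genes with at least 50 UMIs, such an interval was met by 18.8% in NSC/RG-like, 17.4% in neuron-like and 16.2% in oligodendrocyte cells. In astrocyte-like, pericyte and endothelial cells it was met by 11.7%, 10.4% and 9.84%. Several of the 9 were Flt1 outside the endothelium, mostly from cells that also carry endothelial transcripts, as given below. Another was Angpt2 in pericytes, whose log2 ratio in named pericyte subclusters was -0.15.

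**Figure D2:**
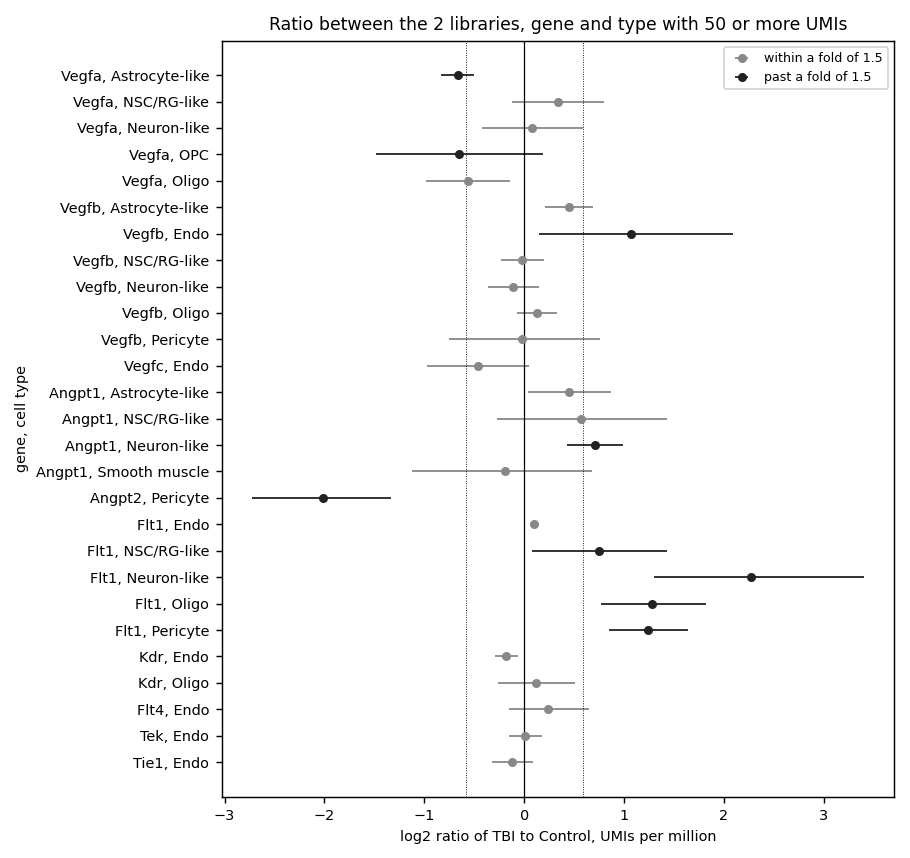
Log2 ratio of TBI to Control in CPM for each gene and cell type with at least 50 UMIs, with 95% intervals of counting error; dotted lines mark a fold of 1.5 and black points lie past it. Vegfa in astrocyte-like cells and Angpt2 in pericytes lie to the left, Angpt1 in neuron-like cells and Flt1 outside the endothelium to the right.

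Vegfa, the ligand that drives vessel sprouting and permeability, was lower in astrocyte-like cells of the TBI library than of the Control library. Its level there was 379 CPM (interval 356 to 402, 1055 UMIs) in Control and 239 CPM (217 to 263, 423 UMIs) in TBI, a log2 ratio of -0.66 (-0.83 to -0.50). In the same cells 3.21% of 8961 genes were lower in TBI by 1.5-fold or more. The share of astrocyte-like cells with a Vegfa UMI, in cells thinned to 2000 UMIs, was 38.4% in Control and 31.6% in TBI, against 0.398% and 0.372% in endothelial cells, which serve as a background. Without thinning it was 42.7% over both libraries, and 1.45% in endothelial cells. Median depth was 3634 UMIs in Control and 2418.5 in TBI astrocyte-like cells and 3954 over both libraries in endothelial cells. In astrocyte-like cells with at least 2000 UMIs the log2 ratio was -0.57, and with a mitochondrial limit of 10% it was -0.58, both just within 1.5-fold.

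The 6 astrocyte-like clusters differed more among themselves in Vegfa than the libraries did. Cluster 10, led by Nwd1, Atp13a4 and Trim9, had 797 CPM over both libraries, and cluster 8, led by Ttr and Mt3, 43.0 CPM. Vegfa was lower in TBI in 5 of the 6 clusters. In cluster 10 it was 916 CPM in Control and 524 CPM in TBI, in cluster 3 it was 455 and 308 CPM, in cluster 25 412 and 341 CPM, in cluster 11 133 and 73.1 CPM, and in cluster 31 83.9 and 30.8 CPM. Cluster 8 was the exception, with 25.7 and 64.9 CPM from 9 and 18 UMIs. With TBI clusters weighted as in the Control library the log2 ratio was -0.58, just within 1.5-fold, against -0.66 as counted.

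Outside astrocyte-like cells Vegfa was lower over both libraries and had no common direction. The order after astrocyte-like cells was fibroblasts (163 CPM from 19 UMIs in 30 cells), OPC (92.5 CPM), NSC/RG-like (17.3 CPM), pericytes (14.4 CPM), oligodendrocytes (13.3 CPM) and neuron-like cells (10.2 CPM). Within each library the fibroblast interval (85.1 to 388 in Control, 72.5 to 260 in TBI) overlapped that of astrocyte-like cells. The intervals of fibroblasts and OPC overlapped, as did those of NSC/RG-like cells, pericytes and oligodendrocytes. In oligodendrocytes Vegfa was 16.6 CPM in Control and 11.2 CPM in TBI (log2 -0.56, -0.99 to -0.14), lower in all 4 clusters with at least 20 UMIs but within 1.5-fold. In OPC it was 120 CPM from 25 UMIs and 76.6 CPM from 28 UMIs (log2 -0.65, -1.48 to 0.19), and oligodendrocyte markers summed to 24668 CPM in Control and 5601 CPM in TBI OPC, whose part in it was not tested, beside a median log2 ratio of 0.12 over all OPC genes. In NSC/RG-like cells the log2 ratio was 0.34 and in neuron-like cells 0.08.

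The Vegfa gene (chr17:46016993-46032369, GRCm38, minus strand) has 8 protein-coding transcripts in the annotation used, which differ in how the protein binds matrix and receptors. The counts sum them, and the same holds for soluble and membrane forms of Flt1.

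Vegfb, a ligand of Flt1 linked to metabolism more than to sprouting, was detected in every cell type, and its leading type was again astrocyte-like. There it was 112 CPM (99.97 to 125, 312 UMIs) in Control and 153 CPM (135 to 172, 270 UMIs) in TBI, a log2 ratio of 0.45 (0.21 to 0.69) within 1.5-fold. It was higher in TBI in 5 of 6 astrocyte-like clusters, opposite to Vegfa in the same cells. The share of these cells with a Vegfb UMI after thinning was 15.98% in Control and 24.0% in TBI. Levels in fibroblasts, NSC/RG-like cells, microglia, smooth muscle cells, OPC and oligodendrocytes ran from 103 to 61.9 CPM with neighbours overlapping, and endothelial cells were lowest at 16.2 CPM. In endothelial cells it was 9.73 CPM from 13 UMIs in Control and 20.4 CPM from 43 UMIs in TBI (log2 1.07, 0.15 to 2.09). By vessel segment, as named below, it was lower in TBI in venous cells (log2 -0.84, -3.06 to 1.49). It was higher in capillary (log2 1.00, -0.15 to 2.29), arterial (0 and 6 UMIs) and unnamed endothelial cells (0 and 8 UMIs). In NSC/RG-like cells the log2 ratio was -0.02, in neuron-like cells -0.11, in oligodendrocytes 0.13 and in pericytes -0.02.

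Vegfc, the ligand of Flt4, was an arterial transcript within these endothelial cells. Endothelial subclusters were named capillary (414 cells), arterial (174 cells) and venous (137 cells) from markers, and 102 endothelial cells stayed unnamed. Arterial cells held 123 of 135 endothelial Vegfc UMIs, at 154 CPM (128 to 184), against 2.94 CPM in capillary and 10.97 CPM in venous cells. The arterial level was 52.4 times the capillary level (21.8 to 164). It was 152 times in Control (26.2 to 6100) and 30.1 times in TBI (11.2 to 114), from 1 and 4 capillary UMIs. The intervals of the libraries overlapped, so these counts could not tell their folds apart. In arterial cells Vegfc was 208 CPM from 59 UMIs in Control and 124 CPM from 64 UMIs in TBI (log2 -0.75, -1.28 to -0.21). No background percent is given for arterial cells. Endothelial Vegfc UMIs sat in few cells, 22 in Control and 44 in TBI. The 10 cells with most of them held 74.6% in Control and 47.2% in TBI, a concentration that the interval does not cover. Over all endothelial cells Vegfc was 47.1 and 34.1 CPM (log2 -0.47, -0.97 to 0.05). Fibroblasts had 34.4 CPM (9.37 to 88.0) from 4 UMIs, and astrocyte-like cells 10.3 CPM and 20.5% of Vegfc UMIs, with 34 UMIs in Control and 13 in TBI.

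Flt1, the tight-binding VEGF receptor with weak signalling, was counted in nearly all endothelial cells at levels close to each other in both libraries. It was 4555 CPM (4441 to 4671) in Control and 4885 CPM (4791 to 4981) in TBI, a log2 ratio of 0.10 (0.06 to 0.15). Of the endothelial cells thinned to 2000 UMIs 99.1% had a Flt1 UMI, against 0.294% of astrocyte-like cells (99.8% and 0.694% without thinning). Capillary cells had 5061 CPM, arterial cells 4890 CPM and venous cells 3792 CPM, and capillary cells were 1.33 times venous cells (1.27 to 1.41), with 1.41 in Control and 1.32 in TBI.

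Kdr, the main signalling receptor of Vegfa, was highest in capillary cells among the named segments, while unnamed subcluster 4 had 819 CPM. It was 869 CPM in capillary, 621 CPM in venous and 393 CPM in arterial cells, and its capillary level was 2.21 times the arterial one (1.96 to 2.50), 2.05 times in Control and 2.29 times in TBI. Over all endothelial cells it was 767 CPM (721 to 815) in Control and 677 CPM (643 to 713) in TBI, a log2 ratio of -0.18 (-0.30 to -0.06). It was lower in TBI in all 3 endothelial clusters of the clustering of all cells. By named segment the log2 ratio was -0.14 in capillary and -0.31 in arterial cells. In venous cells Kdr was higher, 568 CPM in Control and 645 CPM in TBI (log2 0.18, -0.20 to 0.57). By endothelial subcluster it was higher in TBI in 2, 3 and 4 and lower in 0, 1 and 5. An interval that leaves out equal levels, as for Flt1 and Kdr over all endothelial cells, was met by 9.84% of genes in endothelial cells, and both ratios were well within 1.5-fold. Hemoglobin genes summed to 9229 CPM in Control and 1628 CPM in TBI endothelial cells, and without hemoglobin and mitochondrial genes the log2 ratios were 0.08 for Flt1 and -0.20 for Kdr.

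Flt4, Tek and Tie1 showed no difference between the libraries beyond counting error over all endothelial cells, and neighbouring vessel segments had overlapping intervals. Flt4, known from lymphatic endothelium, was 61.4 CPM from 82 UMIs in Control and 72.5 CPM from 153 UMIs in TBI endothelial cells (log2 0.24, -0.16 to 0.65). Tek was 362 CPM (331 to 396) and 364 CPM (339 to 391), a log2 ratio of 0.01 (-0.16 to 0.18). Tie1 was 245 CPM (220 to 274) and 226 CPM (206 to 247), a log2 ratio of -0.12 (-0.32 to 0.09). For Tek and Tie1 the intervals stay within 1.5-fold, and for Flt4 the interval does not. Across arterial, capillary and venous cells Tek was 393, 355 and 408 CPM and Tie1 253, 233 and 283 CPM. Flt4 was 55.1, 81.8 and 74.6 CPM in the same order. In the 102 unnamed endothelial cells, 29 of them Control, Tek was 218 CPM from 40 UMIs in Control and 356 CPM from 110 UMIs in TBI (log2 0.70, 0.17 to 1.26). They joined subcluster 4, led by interferon-induced genes (264 and 402 CPM), and subcluster 5, led by Vtn, Aldoc and Igfbpl1 (181 and 283 CPM). No background percent is given for these cells.

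**Figure D3:**
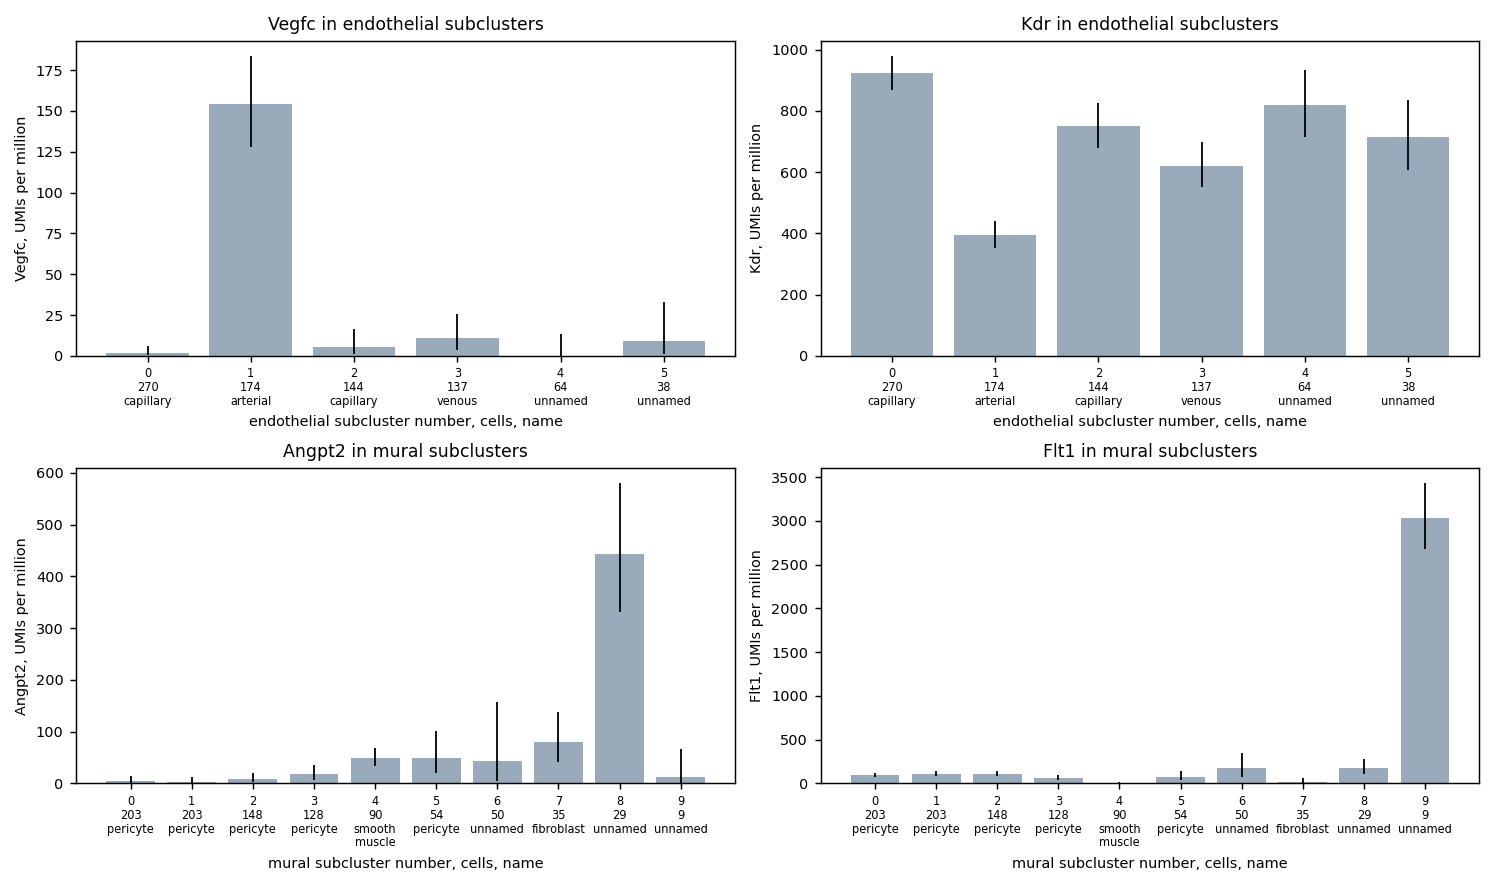
CPM (bars, both libraries) with 95% intervals of counting error for Vegfc and Kdr in endothelial subclusters and for Angpt2 and Flt1 in mural subclusters, each labelled with its number, cells and name. Vegfc stands out in the arterial subcluster, Kdr is lowest there, Angpt2 in mural subcluster 8 and Flt1 in mural subcluster 9.

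Single endothelial cells carried several receptors at once. In 789 endothelial cells thinned to 2000 UMIs, a UMI of 3 of the 5 receptor genes was seen in 40.2%, of 2 in 34.1%, of 4 in 15.7%, of 1 in 8.24%, of all 5 in 1.39% and of none in 3 cells. Kdr was seen in 67.9% of all these cells, in 68.3% of those with Flt1, in 66.6% of those with Tek and in 66.7% of those with Tie1. Tie1 was seen in 34.6% of all cells and in 35.7% of those with Tek. Thus detecting a given receptor went with little change in the share that had another.

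In NSC/RG-like, neuron-like and oligodendrocyte cells Flt1 UMIs were few and sat in few cells. Their levels were 8.70, 5.43 and 13.1 CPM in this order, and each was higher in TBI by more than 1.5-fold, with log2 ratios of 0.75 (0.08 to 1.43), 2.27 (1.30 to 3.40) and 1.28 (0.77 to 1.82). The 10 cells with most Flt1 UMIs held 86.7% of the UMIs of NSC/RG-like cells, 77.0% of those of neuron-like cells and 89.4% of those of oligodendrocytes. Cells with 3 or more UMIs of 8 endothelial markers, which were 10, 6 and 9 cells of these types, held 79.5%, 70.3% and 88.3%. Endothelial marker levels were also higher in TBI, from 25.6 to 49.5 CPM in NSC/RG-like, from 16.4 to 34.4 CPM in neuron-like and from 20.8 to 70.8 CPM in oligodendrocyte cells. Without called doublets the NSC/RG-like log2 ratio was -1.31 and the oligodendrocyte level 1.61 CPM. Both are given without an interval, and no such value is given for neuron-like cells. Of the Flt1 UMIs of these types 13 of 83, 21 of 74 and 19 of 188 lay in cells with no endothelial marker UMI. The levels in these 3 types therefore rest mostly on a handful of cells that also carry endothelial transcripts, least so in neuron-like cells.

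In pericytes Flt1 was 96.9 CPM from 64 UMIs in Control and 228 CPM from 403 UMIs in TBI, a log2 ratio of 1.24 (0.85 to 1.64). Mural subcluster 9, 9 TBI cells led by the endothelial genes Cldn5, Ly6a and Slco1a4, held 255 Flt1 UMIs at 3034 CPM. In pericyte subclusters named from markers Flt1 was 88.0 CPM in Control and 92.4 CPM in TBI (log2 0.07, -0.41 to 0.57), and without called doublets the log2 ratio in pericytes was -0.01. Endothelial markers summed to 746 CPM in Control and 1219 CPM in TBI pericytes. What remained in named pericytes, 91.3 CPM, was 10.4 times the level of named smooth muscle cells (4.70 to 28.7). This ratio rests on 6 smooth muscle UMIs, all in TBI, where it was 3.60 (1.61 to 9.96), while Control smooth muscle cells had 0 UMIs. After thinning 13.9% of pericytes had a Flt1 UMI against 0.294% of astrocyte-like cells. Of the 467 pericyte UMIs 22 were in the 140 of 827 cells with no endothelial marker UMI, where the level was 71.3 CPM (44.7 to 108).

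**Figure D4:**
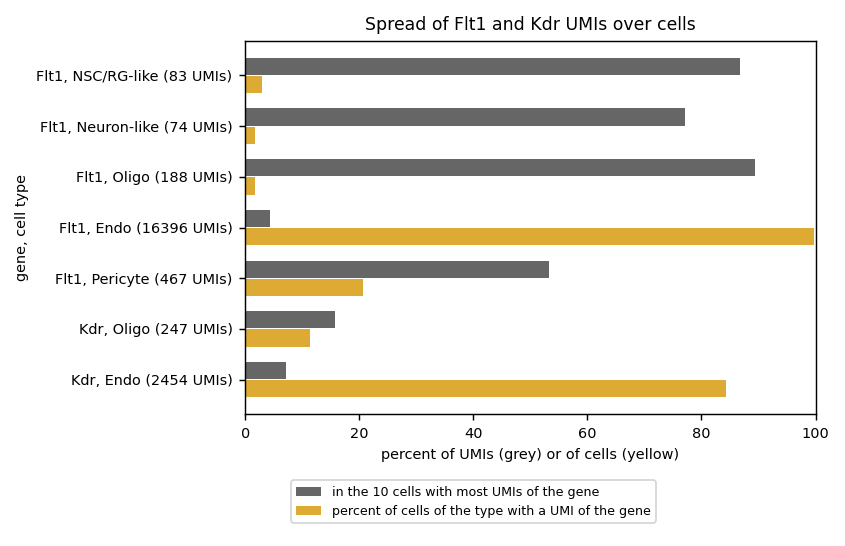
Grey bars give the percent of the Flt1 or Kdr UMIs of a cell type that lay in the 10 cells with most of them. Yellow bars give the percent of cells of the type with a UMI of the gene. Flt1 of NSC/RG-like, neuron-like and oligodendrocyte cells is concentrated in a few cells, and Kdr of oligodendrocytes is not, with 15.8% in the top 10 cells.

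Kdr in oligodendrocytes had another distribution than Flt1. Its level was 16.4 CPM (13.2 to 20.1, 93 UMIs) in Control and 17.8 CPM (15.1 to 20.9, 154 UMIs) in TBI, a log2 ratio of 0.12 (-0.26 to 0.51). It was spread over 191 of 1671 cells, the top 10 cells held 15.8%, and 207 of the 247 UMIs were in cells with no endothelial marker UMI, where the level was still 15.8 CPM (13.7 to 18.1). After thinning to 2000 UMIs 2.88% of oligodendrocytes had a Kdr UMI, against 0.192% of neuron-like and 0.0981% of astrocyte-like cells (11.4%, 0.441% and 0.347% without thinning, at median depths of 8799, 8891.5 and 3055 UMIs). Kdr made up 13.0% of the summed Flt1 and Kdr UMIs of endothelial cells, and 56.8% (52.0 to 61.5) of those of oligodendrocytes. Among oligodendrocyte cells without an endothelial marker UMI it was 91.6% (87.2 to 94.9). By cluster the level ran from 8.39 CPM in cluster 19 to 32.5 CPM in cluster 18, led by Pmp22 and Serpinb1a.

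Angpt1, the agonist of Tek, was highest by cell type over both libraries in smooth muscle cells, at 74.3 CPM (55.5 to 97.4). Astrocyte-like cells followed at 43.9 CPM, neuron-like cells at 35.9 CPM and pericytes at 20.2 CPM. The intervals of astrocyte-like and neuron-like cells overlapped. In TBI the smooth muscle interval (39.6 to 109) overlapped those of astrocyte-like (42.5 to 64.5) and neuron-like cells (38.6 to 48.0). A neuron-like cluster and an unnamed mural subcluster given below had higher levels. Within mural cells named smooth muscle cells had 5.86 times the level of named pericytes (3.63 to 9.64), 10.6 times in Control and 4.89 times in TBI, from 4 and 24 pericyte UMIs. In smooth muscle cells it was 77.8 CPM from 35 UMIs in Control and 68.0 CPM from 17 UMIs in TBI (log2 -0.19, -1.12 to 0.68), which these counts could not tell apart.

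In neuron-like cells Angpt1 was higher in the TBI library. It was 26.4 CPM (22.4 to 30.9, 155 UMIs) in Control and 43.1 CPM (38.6 to 48.0, 335 UMIs) in TBI, a log2 ratio of 0.71 (0.43 to 0.99), and 1.78% of 10800 genes were higher in these cells by 1.5-fold or more. Angpt1 was higher in all 5 clusters with at least 20 UMIs, by log2 ratios from 0.65 to 0.74. Cluster 28, 109 cells led by Snhg11, Reln, Meg3, Ndnf and Lhx1, had the highest level, 115 CPM in Control and 192 CPM in TBI. Cluster 1 had 35.6 and 57.4 CPM, cluster 6 had 25.8 and 43.2 CPM, cluster 4 had 14.2 and 23.4 CPM, and cluster 5 had 10.2 and 15.98 CPM. With clusters weighted as in Control the log2 ratio was 0.69. The share of neuron-like cells with an Angpt1 UMI after thinning was 4.57% in Control and 8.13% in TBI, against 0.182% and 0.395% of oligodendrocytes (19.3% of neuron-like cells and 2.03% of oligodendrocytes over both libraries without thinning). In astrocyte-like cells Angpt1 was 38.4 and 52.6 CPM (log2 0.45, 0.04 to 0.87), higher in all 4 clusters with at least 20 UMIs and within 1.5-fold. The Angpt1 gene overlaps Gm17473 on the opposite strand, and whether reads were counted by strand is not given in the sources used here.

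**Figure D5:**
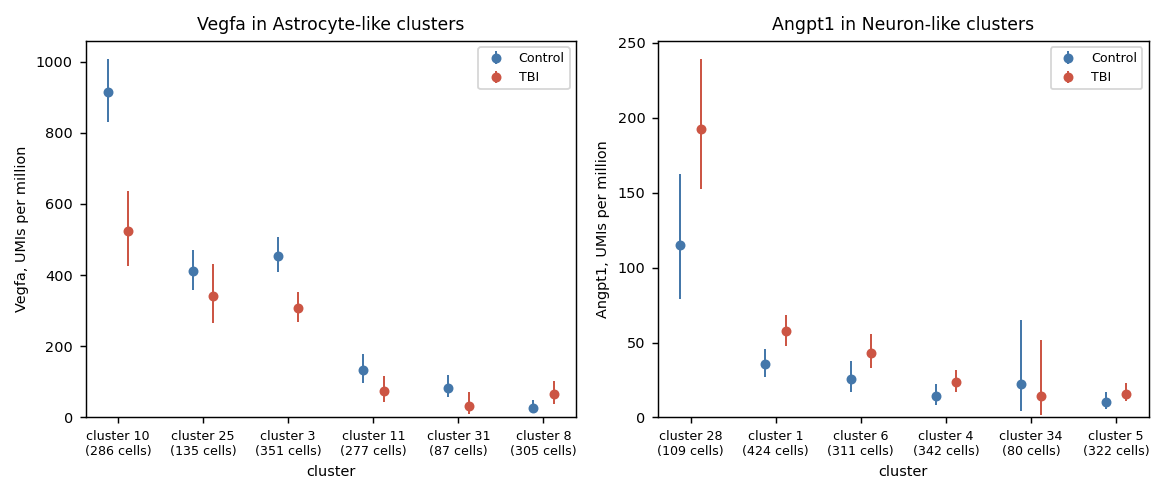
CPM of Vegfa in the 6 astrocyte-like clusters and of Angpt1 in the 6 neuron-like clusters, for the Control (blue) and TBI (red) libraries, with 95% intervals of counting error. Vegfa is lower in TBI in 5 clusters, with cluster 8 the exception, and Angpt1 is higher in TBI in 5 clusters, cluster 34 with 5 UMIs being the exception.

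Angpt2, the context-dependent antagonist of Tek, was counted from only 259 UMIs, mostly in mural cells and endothelium. It was 86.0 CPM in fibroblasts from 10 UMIs, 48.6 CPM in smooth muscle cells, 32.2 CPM in pericytes and 14.2 CPM in endothelial cells, and intervals of the first 3 overlapped in order. In pericytes it was 71.1 CPM (52.3 to 94.6, 47 UMIs) in Control and 17.6 CPM (11.9 to 24.9, 31 UMIs) in TBI, a log2 ratio of -2.02 (-2.72 to -1.33), and 4.16% of genes were lower in pericytes by 1.5-fold or more. Most of these UMIs lay in mural subcluster 8, 29 cells led by Cxcl1, Colec11, Ccl11 and Il6, which stayed unnamed and had 442 CPM (330 to 580) from 52 UMIs, 39 in Control and 13 in TBI. Angpt1 was also high there, at 153 CPM. In named pericyte subclusters Angpt2 was 11 CPM in Control and 9.92 CPM in TBI, from 6 and 16 UMIs (log2 -0.15, -1.58 to 1.49). Named smooth muscle cells had 4.73 times the level of named pericytes (2.68 to 8.52), and 48.9 and 47.1 CPM in the libraries. Among endothelial subclusters Angpt2 was highest over both libraries in unnamed subcluster 4, 64 cells led by the interferon-induced genes Ifit3 and Isg15, at 51.4 CPM (28.1 to 86.2). All 14 UMIs there were from TBI cells (74.1 CPM), and its 16 Control cells had 0 (interval up to 44.2 CPM), while in Control subclusters 5 and 2 had 30.1 and 25.5 CPM from 3 and 4 UMIs. Angpt2 overlaps Mcph1 on the opposite strand.

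Immediate early genes, which also respond to dissociation, summed to 7071 CPM in Control and 16145 CPM in TBI pericytes. Their part in the mural results was not tested, and leaving out the mural subcluster richest in them gave log2 ratios of 1.47 for Flt1 and -1.87 for Angpt2 in pericytes.

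Over whole libraries the sums moved with the mix of cell types, and with such sums fewer cells of a type and less RNA per cell cannot be told apart. Vegfa was 59.2 CPM over the Control and 26.7 CPM over the TBI library (log2 -1.15), and -0.55 with the TBI cell types weighted as in Control. Astrocyte-like cells were 24.2% of Control and 13.9% of TBI cells. Flt1 had a log2 ratio of 0.50 over whole libraries and 0.19 at the Control mix, Kdr 0.21 and -0.08, Tek 0.38 and 0.09, Tie1 0.30 and -0.03, and Flt4 0.65 and 0.34. Angpt1 had 0.24 and 0.44, Angpt2 -0.32 and -0.39, Vegfb -0.05 and 0.13, and Vegfc -0.47 in both. Thus for Kdr, Tek and Tie1 the higher sum in TBI shrank to near 0 or below once the mix was held, and for Angpt1 it grew.

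Most other genes of the pathway in endothelial cells differed by less than 1.5-fold between the libraries. Only genes with at least 50 UMIs in the cell type are counted as measured, and the median log2 ratio over all such genes in endothelial cells was 0.02. Of the co-receptors and other VEGF ligands 0 of 4 measured genes differed by 1.5-fold (median log2 0.02), with the co-receptor Nrp1 at 421 CPM in Control and 418 CPM in TBI (log2 -0.01) and the matrix proteoglycan Hspg2 at 83.0 and 86.3 CPM. Of angiopoietin and Tie partners (median -0.003) 1 of 5 differed, the integrin Itga5, lower at 21.7 and 14.2 CPM (log2 -0.61, -1.40 to 0.18), while the Tek phosphatase Ptprb was 1591 and 1665 CPM and the integrin Itgb1 382 CPM in both. Of VEGF receptor signalling genes (median 0.05) 0 of 8 differed, with the junction protein Cdh5 at 470 and 480 CPM and Rasip1 at 361 and 379 CPM. Of endothelial transcription factors (median -0.12) 0 of 13 differed, with Klf2 at 3520 and 3098 CPM and Klf4 at 1505 and 1323 CPM.

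Of tip cell genes, which mark the leading cells of sprouts, 1 of 5 measured genes differed by 1.5-fold in endothelial cells (median log2 0.47). The guidance receptor Unc5b was past 1.5-fold, 71.8 CPM in Control and 109 CPM in TBI (log2 0.60, 0.25 to 0.96), and the Notch ligand Dll4 was just short of it, 67.3 and 100 CPM (log2 0.57, 0.21 to 0.94). Of hypoxia factors (median -0.002) 0 of 6 differed, with Epas1 at 956 and 957 CPM and Hif1a at 90.5 and 83.9 CPM. Of hypoxia targets (median 0.12) 1 of 11 differed, the vasodilator peptide gene Adm, 29.2 and 51.2 CPM (log2 0.81, 0.27 to 1.38), while the glucose transporter Slc2a1 was 1668 and 1807 CPM and Ndrg1 480 and 528 CPM. These 3 genes of 52 measured stand beside 5.5% of all genes in endothelial cells.

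Hypoxia genes are given for astrocyte-like cells, the main holders of Vegfa, since Vegfa is itself a known hypoxia target. Of 6 measured hypoxia factors 0 differed by 1.5-fold (median log2 0.08, against -0.01 for all genes of these cells), with Epas1 at 128 CPM in Control and 157 CPM in TBI (log2 0.30, 0.07 to 0.53) and Hif1a at 76.9 and 80.4 CPM. Of 10 hypoxia targets (median 0.01) 1 differed and was higher, Pdk1, an inhibitor of pyruvate dehydrogenase, at 19.4 and 31.1 CPM (log2 0.68, 0.11 to 1.25). The glycolytic genes Pgk1 and Ldha were 167 and 178 CPM and 145 and 134 CPM. These counts stand beside 4.91% of all genes in astrocyte-like cells that differed by 1.5-fold or more.

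In pericytes 6 of 42 measured list genes were higher in TBI by 1.5-fold, against 4.94% of all genes. They were Ptprb (log2 1.29), the listed endothelial transcription factors Lmo2 (1.63), Klf2 (2.03) and Klf4 (1.72), and the hypoxia targets Adm (1.01) and Slc2a1 (1.32). Klf4 was also among the 10 leading genes of mural subcluster 2, named pericyte, beside the immediate early genes Egr1, Fosb and Jun. That subcluster had 18 Control and 130 TBI cells. Endothelial markers and immediate early genes were also higher there, as given for Flt1 and Angpt2, and their part in it was not tested. In oligodendrocytes 3 of 35 measured list genes were past 1.5-fold, Ptprb (log2 0.77), Klf2 (1.87) and Klf4 (2.00), all higher in TBI, against 3.93% of all genes. All 3 are expressed in endothelium, and endothelial markers were higher there too, from 20.8 to 70.8 CPM. Immediate early genes went from 276 to 405 CPM, and the part of either in it was not tested. In neuron-like cells 3 of 37 measured list genes were past 1.5-fold, against 4.18% of all genes. The chemokine receptor Cxcr4, counted among tip cell genes, was lower, 35.1 CPM in Control and 21.4 CPM in TBI (log2 -0.72, -1.02 to -0.41), while the endothelial genes Rasip1 (log2 1.15) and Klf2 (0.60) were higher, as were endothelial markers, from 16.4 to 34.4 CPM, whose part in it was not tested.

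The genes whose levels ran most like each receptor over 18 points, cell types in each library with at least 20 cells, were mostly known from endothelium. Over 12071 genes, log2(CPM + 1) of Flt1 correlated best with Adgrf5 (Pearson r 0.97), Slco1a4 (0.96) and Tek (0.96). Slco1a4 is also a marker used to name endothelial cells, so its match is partly built in. For Tek the best were Hspa12b (0.99), Sox17 (0.99) and Hmcn1 (0.98), for Tie1 Gm9946, Gimap5 and Slc38a5 (0.99 each), for Flt4 Foxl2, Fmo2 and Ly75 (1.00 each), and for Kdr, with its oligodendrocyte level, Thsd1 (0.90) and Itpr3 (0.89). Vegfa ran most like Trim9 (0.94), Usp40 (0.93) and Cspg5 (0.93), Vegfb like Ckb (0.90), Cryzl2 (0.87) and Kyat3 (0.81), and Vegfc like Nxpe4 (0.90), Myrip (0.86) and Gbp3 (0.85). Angpt1 ran most like Idh3b (0.92), Crtc3 (0.91) and Atp5g3 (0.90), and Angpt2 like Col18a1 (0.92), Stk24 (0.92) and Prkg1 (0.92). The points share libraries and depth, and a gene seen in 1 cell type only, such as Flt4, correlates highly with any other such gene.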

How the data were processed

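The authors deposited 1 table of counts per condition, whole UMI counts per gene and cell barcode without normalization, made from 10x 3′ v3 libraries. The submitters' processing notes name Cell Ranger 3.0.2 and the build GRCm38 (mm10). Each table was given its condition by the cell barcodes that the study lists by condition, of which 356 of 356 Control and 320 of 320 TBI barcodes were found in the matching table and 0 in the other. The 10 genes and the pathway lists were chosen with earlier results of these data known.

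A barcode was kept if it had at least 200 genes and a log UMI count no farther than 3 median absolute deviations from its library's median. This left 3049 of 3086 barcodes and 24629521 UMIs for Control, and 5036 of 5081 barcodes and 31503415 UMIs for TBI. Seurat 5.3.0 in R 4.3.3 clustered them on 2000 variable genes by canonical correlation analysis (20 dimensions, 20 components, resolution 3), without Malat1, the 10 genes and the list genes. Endothelial and mural cells were clustered again (15 components, resolution 0.8). A name needed the best standardized mean of its markers, at least 3 of them detected in 10% of cells. A subcluster needed a score of 0.5 and a lead of 0.3 over the next name. These clusters are rebuilt and are not the authors' own. Scrublet in scanpy 1.11.5 called 38 Control (1.25%) and 110 TBI (2.18%) doublets, which were left in unless stated.

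CPM used all UMIs of the cell type but Malat1. Intervals are exact, Poisson for levels, Clopper-Pearson for shares and conditional binomial for ratios, and a count of 0 allows up to 3 counts. Each ratio compares 2 libraries, and the conditions, with 1 library each, were not tested. In simulated data with some genes changed 2-fold, the ratio intervals held the true value for 96.0% of 7467 genes in endothelial, 95.5% of 8814 in astrocyte-like and 95.9% of 6868 in pericyte cells. Such a simulation bears on counting error only and cannot show whether the intervals cover spread between animals. Genes named are the 10 genes, list genes with at least 50 UMIs past 1.5-fold, the 2 list genes with most UMIs per list, and the 3 genes most correlated with each of the 10 genes among those with at least 200 UMIs, of which 1 is not reported here. Sequences are from RefSeq and gene positions from GENCODE. Python 3.11.15, numpy 2.4.6, scipy 1.17.1 and matplotlib 3.10.9 were used. Alternatives covered cell filters, doublets, integration, resolution, thinning and scaling, and those on mural and endothelial subclusters and on cells with endothelial UMIs were chosen after seeing the data.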

Additional observations from a re-analysis of the deposited data

How the results depend on the processing

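No paired analysis was possible because the animals of a condition were pooled into 1 library. For the leading cell type of each gene, 260 of 266 levels and ratios under the alternatives stayed within counting error of the values given, and no direction turned. The astrocyte-like Vegfa log2 ratio ran from -0.57 to -0.68 and was within 1.5-fold under 3 settings, cells with at least 2000 UMIs (-0.57), a mitochondrial limit of 10% (-0.58) and clusters weighted as in Control (-0.58). The neuron-like Angpt1 log2 ratio ran from 0.69 to 0.81. The 6 exceptions to the first count were levels. Astrocyte-like Vegfa was 349 CPM in cells with at least 2000 UMIs, 344 CPM without cells rich in immediate early genes and 364 CPM without mitochondrial and hemoglobin genes. The last setting, which lowers the total that levels are divided by, also gave 143 CPM for astrocyte-like Vegfb and 5019 and 751 CPM for endothelial Flt1 and Kdr. Of the other values, 209 stayed, 75 moved and 4 turned direction. The 4 were all Flt1. In pericytes its log2 ratio of 1.24 was -0.011 without called doublets and -0.16 without cells with 3 or more endothelial marker UMIs. In NSC/RG-like cells its log2 ratio of 0.75 was -1.31 without called doublets and -0.30 without integration. The pericyte Angpt2 log2 ratio of -2.02 was -0.61 (-1.93 to 0.84) without unnamed mural subclusters. List genes past the fold numbered 3 of 52 measured in endothelial cells and 6 of 42 in pericytes. In astrocyte-like cells they were 1 of 31 and in oligodendrocytes 3 of 35. With a minimum of 20 UMIs these numbers rose. No share over all genes was counted at that minimum, so the rise cannot be set against a background. At a fold of 2 the list genes past it numbered 0 in endothelial and astrocyte-like cells, where 0.747% and 0.513% of all genes were past it. All 6 in pericytes stayed past it, against 1.97% of all genes. In oligodendrocytes Klf2 and Klf4 stayed past it, against 0.613%. With 1 library per condition, spread between animals is not known, and ratios from under 100 UMIs have intervals wider than 1.5-fold.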
